A study of Mus musculus with 12 samples.

Results

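Integrins are receptors through which cells hold on to matrix proteins and to each other, and each is a pair of 1 alpha and 1 beta subunit. Described here are 10 subunit genes that blood cells use, taken by name from the 19937 genes of the array: *Itga2b* and *Itgb3*, *Itga2*, *Itga5*, *Itga6* and *Itga4* with their common partner *Itgb1*, and *Itgb2* with *Itgal* and *Itgam*. In the textbook account the αIIb subunit (CD41) and β3 form the fibrinogen receptor of platelets, α2β1 binds collagen, α5β1 fibronectin, α6β1 laminin and α4β1 VCAM1 and fibronectin, while αLβ2 and αMβ2 are the receptors of leukocytes for ICAMs and complement. Integrins stay in a low-affinity form until talin and kindlin bind the tail of the beta subunit, a step that in platelets follows activation of the GTPase RAP1.

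The levels came from 12 GeneChip Mouse Gene 1.0 ST arrays of cells from mouse fetal liver at E14.5, 4 arrays for each of the 3 populations labeled HSC, ERY and Meg, which the study treats as biological replicates. The labels give no genotype and no treatment, and only Meg were cultured. The HSC arrays, which correspond to the stem and progenitor cells (HSPC) of the study, hold uncultured cells sorted for Sca1 after removal of cells bearing lineage antigens, CD11b, Ter119 and CD71 among them. ERY are uncultured erythroblasts enriched by magnetic selection for Ter119, which marks maturing red cells. Meg are megakaryocytes grown in culture from fetal liver progenitors, first with stem cell factor and thrombopoietin and then with thrombopoietin alone, and taken with beads on CD41. CD41 is the product of *Itga2b* and CD11b that of *Itgam*, so the purification of Meg used 1 member of the family and that of HSC removed cells bearing another. In these bulk samples, fewer cells of a type and less RNA per cell cannot be told apart. Values are log2 values after RMA, so that a difference of 1 is a 2-fold change, and they are compared only within a gene.

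Defining genes of the labeled cell types were checked first. Of 8 measured megakaryocyte markers, *Itga2b* and *Vwf* among them, 8 were higher in Meg than in HSC, where 8.77% of all genes were. Of 11 erythroid markers, 11 were higher in ERY than in HSC, where 8.35% of all genes were. A gene was called where it differed by more than 2-fold at a false discovery rate (FDR) under 5% in limma. *Itga2b* codes for the antigen used to select Meg, so its call is not an independent check. Of 10 measured stem and progenitor markers, 7 were lower in ERY than in HSC and 0 higher, where 12.3% of all genes were lower. In Meg 7 were lower than in HSC and 1 was higher, where 11.4% of all genes were lower and 8.77% higher. *Kit* of this list, which codes for a progenitor antigen, was lower in ERY than in HSC (log2 difference -3.93). *Mecom* and *Sox17* did not exceed the background reading given below even in HSC. *Ly6a*, the gene of Sca1, was not analysed here. *Tfrc*, the gene of CD71, was higher in ERY than in HSC (log2 difference 4.43), but its HSC level was not uniform. It fell steadily from 9.72 on HSC array 1 to 7.03 on array 4, with an SD above that of 98% of genes. *Itga2*, *Itga4*, *Itga6*, *Itgb1* and *Itgam* fell in the same order of HSC arrays. The part of cells bearing CD71 in the HSC levels was not tested. The HSC arrays fell into 2 pairs, with 26.3% of all genes higher on both arrays 1 and 2 than on both arrays 3 and 4 and 54.4% lower on both. Of the 10 subunits, 5 were in the first group (*Itga2*, *Itga4*, *Itga6*, *Itgb1*, *Itgam*) and 3 in the second (*Itga2b*, *Itga5*, *Itgal*), and each call that changes without 1 of these pairs is given without it. As a reading of background, the 95th percentile of the population means of 1027 olfactory receptor genes was 5.64 in HSC, 5.98 in ERY and 6.09 in Meg. Only *Itgam* in ERY did not exceed it, among the 30 subunit means. Against each array's own percentile, *Itgam* was also not above it on 2 of the 4 Meg arrays, array 1 (5.84 against 6.04) and array 4 (7.20 against 7.35). On Meg array 4 the median olfactory receptor gene read 5.70, against 4.27 to 4.55 on the other Meg arrays.

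Promoter sequences were at hand for 6 of the 10 genes, and 3 are shown because their genes followed 3 different patterns: *Itga2b*, highest in Meg and lowest in ERY; *Itga2*, higher in Meg with no detected difference between HSC and ERY; and *Itga4*, highest in ERY. Each is the 250 bases before the transcript start in RefSeq (mouse assembly GRCm38.p6), written 5′ to 3′ on the strand of the gene, with capitals marking matches on either strand to motifs of the factor families studied in these cells: GATAA for GATA factors, GGAAG for ETS factors, CAGCTG for the E-box and TGTGGT for RUNX factors. No match in these windows overlapped another.
Itga2b, chr11:102469884-102470133, minus strand: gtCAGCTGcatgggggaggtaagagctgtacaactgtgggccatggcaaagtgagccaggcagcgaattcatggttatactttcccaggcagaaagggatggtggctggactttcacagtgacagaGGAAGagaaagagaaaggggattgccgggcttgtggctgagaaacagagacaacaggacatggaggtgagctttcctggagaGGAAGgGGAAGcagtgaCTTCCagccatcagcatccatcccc
Itga2, chr13:114932101-114932350, minus strand: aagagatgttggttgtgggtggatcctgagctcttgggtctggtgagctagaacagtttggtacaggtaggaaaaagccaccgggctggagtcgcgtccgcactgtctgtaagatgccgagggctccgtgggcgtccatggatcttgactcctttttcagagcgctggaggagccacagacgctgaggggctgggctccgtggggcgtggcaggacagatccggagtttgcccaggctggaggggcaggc
Itga4, chr2:79255176-79255425, plus strand: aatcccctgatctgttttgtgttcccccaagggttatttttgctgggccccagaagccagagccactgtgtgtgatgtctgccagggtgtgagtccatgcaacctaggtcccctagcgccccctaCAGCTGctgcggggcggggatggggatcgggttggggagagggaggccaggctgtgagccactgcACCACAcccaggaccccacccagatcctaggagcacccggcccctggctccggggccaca

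The *Itga2b* window held 4 matches to GGAAG, at -124, -42, -36 and -25 from the start, and 1 to CAGCTG, at -248. At least 4 GGAAG matches were present in 3.39% of the 32851 windows of this length, and at least 1 in 64.1%. The *Itga4* window held CAGCTG at -125 and TGTGGT at -60, motifs found in 13% and 14% of windows. None of the 4 motifs was in the *Itga2* window. GATAA, present in 22.6% of windows, was in none of the 6 windows of the family, which says only that these letters are not within 250 bases of the start. Of the windows not printed, *Itga5* and *Itgam* each held 1 GGAAG and *Itgb1* held 2.

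Across the family, megakaryocytes and erythroblasts differed from the progenitors in opposite directions at 4 subunits, *Itga2b*, *Itgb3*, *Itga6* and *Itgb2*, which were higher in Meg and lower in ERY, although the lower level of *Itga2b* and *Itgb3* in ERY depended on the HSC arrays and the scaling. Against HSC, 6 of the 10 subunits were higher in Meg, 1 was lower and 3 were not called, where 20.2% of all genes were called (8.77% higher and 11.4% lower). In ERY 1 was higher than in HSC, 6 were lower and 3 were not called, where 20.6% of all genes were called (8.35% higher and 12.3% lower). Between the differentiated populations, 8 were higher in Meg than in ERY, 1 was lower and 1 was not called, beside 16.5% of all genes called (8.75% higher and 7.77% lower). Arrays of the 2 populations did not overlap for 6 subunits in Meg against HSC, 6 in ERY against HSC and 9 in Meg against ERY, where 29.4%, 37.3% and 32.9% of all genes did not. The Meg and ERY comparisons with HSC share the HSC arrays, so their directions are not independent. The median log2 difference of the 10 subunits was 2.20 for Meg against HSC, -1.31 for ERY against HSC and 2.96 for Meg against ERY, while the medians over all genes were -0.02, 0.03 and -0.02. With arrays centered on 59 ribosomal protein genes, which raised the median of all genes by 0.56, 0.40 and 0.15 in these comparisons, higher genes made up 81.6%, 66.4% and 62.0% of those called in place of 43.5%, 40.5% and 53.0%. With quantile normalization the median of all genes in ERY against HSC dropped by 0.11.

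**Figure D1:**
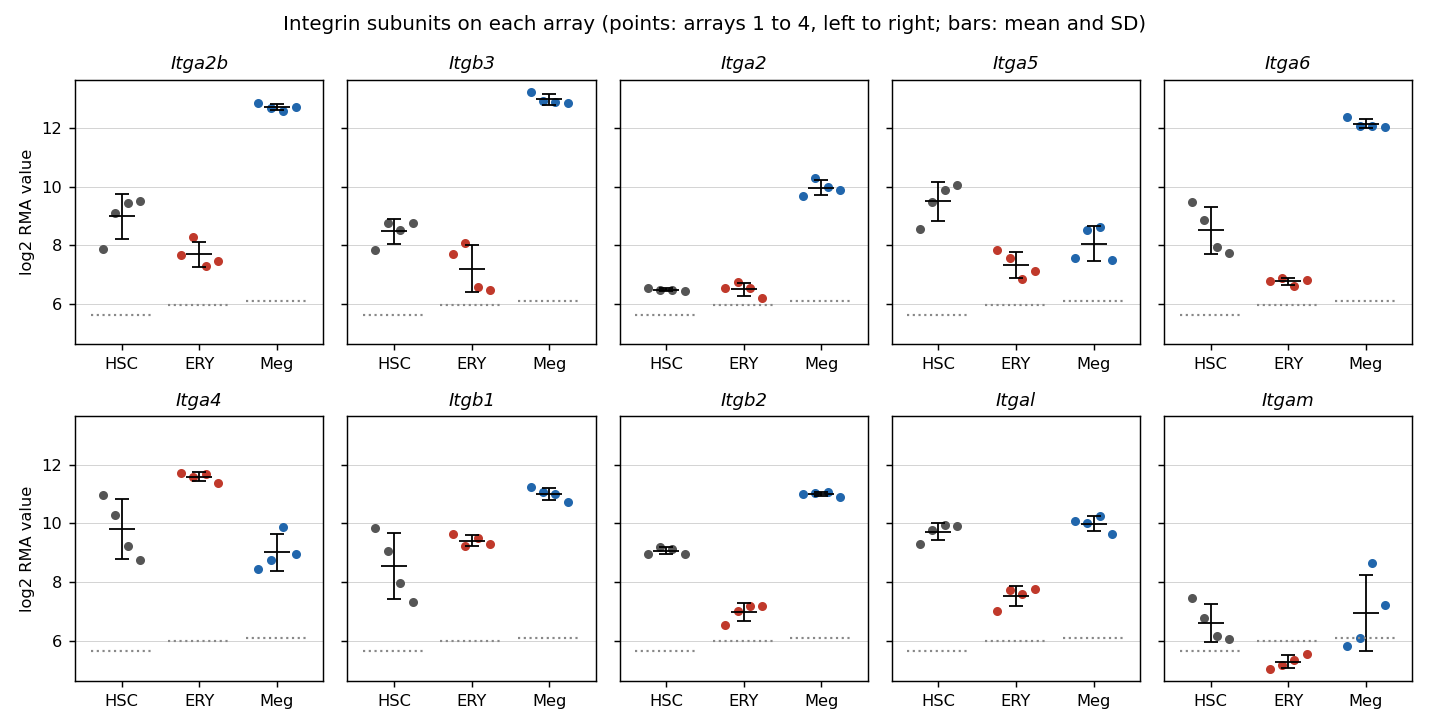
Log2 RMA value of each of the 10 subunits on each array, with populations on the horizontal axis, arrays 1 to 4 of a population from left to right, bars for the mean and SD of 4 arrays, and dotted lines at the 95th percentile of olfactory receptor genes in that population. *Itga2b*, *Itgb3* and *Itga6* stand above 12 on all Meg arrays, *Itga4* is highest in ERY, and the HSC arrays spread over more than 2 for *Itga4* and *Itgb1*.

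The fibrinogen receptor genes had the 2 largest increases of the family in Meg against HSC, and both were above background in progenitors. *Itga2b*, which codes for αIIb, read 12.85, 12.69, 12.57 and 12.72 on Meg arrays 1 to 4, 7.88, 9.09, 9.45 and 9.52 on the HSC arrays, and 7.67, 8.30, 7.31 and 7.48 on the ERY arrays. *Itgb3*, which codes for its partner β3, read 13.23, 12.92, 12.87 and 12.86 in Meg, 7.86, 8.77, 8.52 and 8.77 in HSC, and 7.70, 8.06, 6.58 and 6.47 in ERY. For both genes every Meg array lay above every other array by more than 3 units, while HSC array 1 fell below ERY array 2. *Itga2b* was 13.2-fold higher in Meg than in HSC (log2 difference 3.72, SE 0.32, adjusted p = 3.91e-06 in limma) and 32.4-fold higher than in ERY (5.02, SE 0.32, adjusted p = 1.13e-07). For *Itgb3* the differences were 22.5-fold (4.49, SE 0.34, adjusted p = 1.18e-06) and 54.3-fold (5.76, SE 0.34, adjusted p = 4.78e-08). The *Itgb3* increase ranked 22 among all genes against HSC and 15 against ERY, and that of *Itga2b* ranked 70 and 36. Because CD41 was used to select Meg, the level there is that of cells chosen for this antigen, and the part of the selection was not tested.

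Both genes were also lower in ERY than in HSC, with a log2 difference of -1.29 for *Itga2b* (SE 0.32, adjusted p = 0.00723 in limma) and -1.27 for *Itgb3* (SE 0.34, adjusted p = 0.0103). Both calls were lost without HSC arrays 3 and 4, where the differences were -0.79 (adjusted p = 0.103) and -1.11 (adjusted p = 0.0871). Without arrays 1 and 2 they were -1.79 (adjusted p = 0.000101) and -1.44 (adjusted p = 0.0131). Both calls held when any 1 HSC array was left out. Without HSC array 1, the lowest for both genes, the differences were -1.66 and -1.48. With centering on ribosomal protein genes they were -0.89 and -0.87, short of the 2-fold threshold. The order of levels was thus Meg, HSC, ERY for both, with the lower step dependent on the HSC arrays used. *Itga2b* and *Itgb3* were each other's nearest neighbor among the members, with a root mean square difference of 0.475 over the 12 arrays between profiles centered on each gene's own mean.

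The collagen receptor subunit *Itga2* was a megakaryocyte gene with a low level elsewhere. It read 9.68, 10.29, 9.99 and 9.89 in Meg, 6.55, 6.49, 6.46 and 6.44 in HSC, and 6.55, 6.74, 6.53 and 6.21 in ERY. The Meg values did not overlap the others, and the HSC and ERY values lay within the same range, less than 1 above the olfactory receptor percentile. The gene was 11.1-fold higher in Meg than in HSC (3.48, SE 0.15, adjusted p = 1.7e-08 in limma) and 10.97-fold higher than in ERY (3.46, SE 0.15, adjusted p = 3.83e-09). ERY and HSC differed by 0.02, with a 95% interval of -0.31 to 0.35 (adjusted p = 0.935). The gene next to it in RefSeq (GRCm38.p6) is *Itga1*, the subunit of another collagen receptor, which averaged 4.91 in HSC, 5.55 in ERY and 5.10 in Meg and was not above the olfactory receptor percentile in any population.

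The laminin receptor subunit *Itga6* had the same order as the fibrinogen receptor genes. It read 12.36, 12.07, 12.07 and 12.03 in Meg, 9.46, 8.86, 7.96 and 7.74 in HSC, and 6.77, 6.90, 6.62 and 6.81 in ERY. The 3 populations did not overlap, although HSC arrays 1 and 2 stood above arrays 3 and 4. *Itga6* was 12.4-fold higher in Meg than in HSC (3.63, SE 0.30, adjusted p = 3e-06 in limma), 3.32-fold lower in ERY than in HSC (-1.73, SE 0.30, adjusted p = 0.000693) and 41.0-fold higher in Meg than in ERY (5.36, SE 0.30, adjusted p = 3.51e-08). Without HSC arrays 1 and 2 the ERY difference was -1.07 (adjusted p = 0.000128) and the Meg difference 4.28, and without arrays 3 and 4 they were -2.39 and 2.97, all past the threshold.

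The fibronectin receptor subunit *Itga5* was highest in the progenitors. It read 8.56, 9.48, 9.90 and 10.04 in HSC, 7.58, 8.53, 8.64 and 7.50 in Meg, and 7.84, 7.56, 6.85 and 7.13 in ERY. All ERY arrays lay below all HSC arrays, and HSC array 1 lay within the Meg range. It was 4.45-fold lower in ERY than in HSC (-2.15, SE 0.36, adjusted p = 0.000512 in limma) and 2.70-fold lower in Meg (-1.44, SE 0.36, adjusted p = 0.00819). The Meg call was lost without HSC arrays 3 and 4 (-0.96, adjusted p = 0.118) and with ribosomal centering (-0.88), and was -1.91 without arrays 1 and 2 (adjusted p = 0.0014). Meg and ERY were not told apart (0.72, 95% interval -0.07 to 1.51, adjusted p = 0.19), except with array weights, where the difference was 1.24 (adjusted p = 0.000448).

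The VCAM1 receptor subunit *Itga4* was the member highest in erythroblasts. Its values were 11.73, 11.57, 11.67 and 11.38 in ERY, 10.97, 10.28, 9.21 and 8.76 in HSC, and 8.45, 8.74, 9.89 and 8.96 in Meg. Every ERY array lay above every other array, and the HSC arrays spread over 2.22, more than those of 96.2% of genes by their SD. It was 3.43-fold higher in ERY than in HSC (1.78, SE 0.43, adjusted p = 0.00594 in limma) and 5.97-fold lower in Meg than in ERY (-2.58, SE 0.43, adjusted p = 0.000506). The difference of Meg from HSC, -0.80, was not called (95% interval -1.73 to 0.13, adjusted p = 0.172). Both comparisons with HSC turned on its pairs: without arrays 3 and 4 the ERY difference was 0.96 (adjusted p = 0.0652) and the Meg difference -1.62 (adjusted p = 0.00678), while without arrays 1 and 2 they were 2.601 (adjusted p = 8.07e-05) and 0.02 (adjusted p = 0.961). Without HSC array 4 alone, Meg was called lower (-1.15, adjusted p = 0.0481).

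*Itgb1*, the beta subunit shared by α2, α4, α5 and α6, was high in Meg and had the widest spread of the 10 genes in HSC. It read 11.23, 11.05, 11.01 and 10.73 in Meg, 9.63, 9.23, 9.48 and 9.30 in ERY, and 9.84, 9.05, 7.98 and 7.32 in HSC. The Meg arrays lay above all others, and HSC spanned the whole ERY range. *Itgb1* was 5.49-fold higher in Meg than in HSC (2.46, SE 0.41, adjusted p = 0.000594 in limma), and this was 1.56 without HSC arrays 3 and 4 (adjusted p = 0.000809) and 3.36 without arrays 1 and 2 (adjusted p = 8.45e-07). Meg was 3.01-fold above ERY (1.59, SE 0.41, adjusted p = 0.0115), a call lost without Meg arrays 1 and 3 (1.48, adjusted p = 0.0835). For ERY against HSC the difference was 0.87 (95% interval -0.03 to 1.76, adjusted p = 0.141). It was called higher without HSC array 1 (1.30, adjusted p = 0.00507) and without arrays 1 and 2 (1.77, adjusted p = 4.84e-05), was -0.03 without arrays 3 and 4, and was also called with array weights (1.46) and ribosomal centering (1.27). The order of HSC and ERY was therefore not fixed by these arrays.

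**Figure D2:**
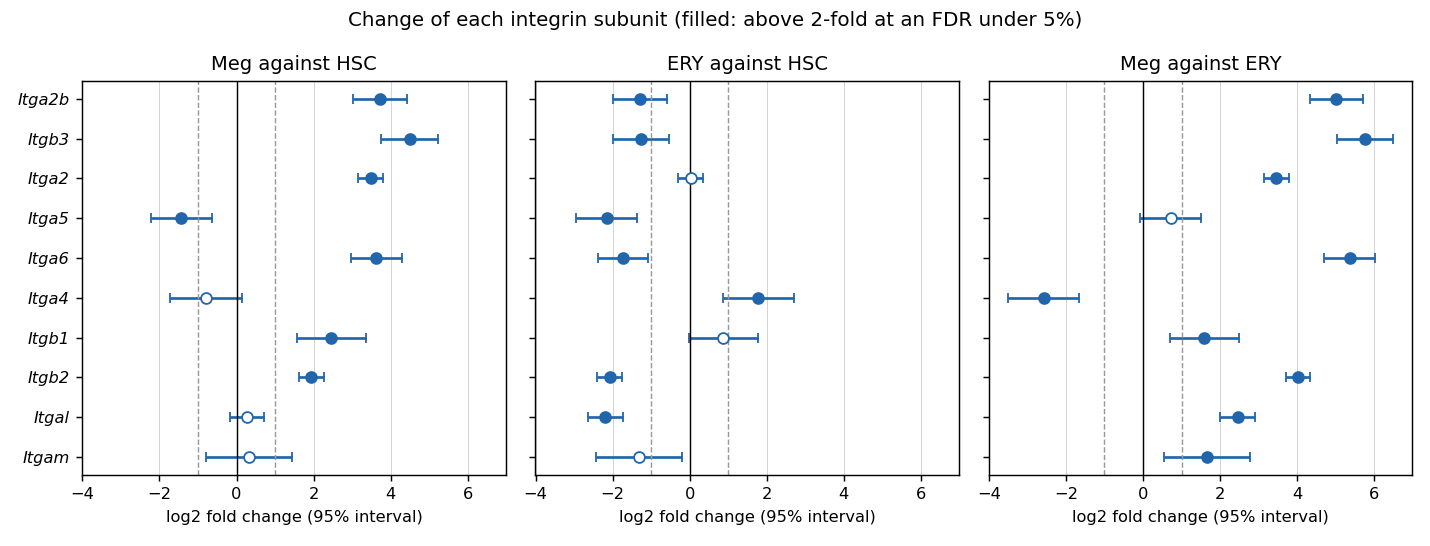
Log2 fold change of each subunit with its 95% interval in the 3 comparisons, with filled points where the change was above 2-fold at an FDR under 5% and dashed lines at a log2 change of 1 in either direction. Changes in Meg against HSC run from -1.44 for *Itga5* to 4.49 for *Itgb3*, and *Itga4* is the subunit lower in Meg than in ERY.

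Of the leukocyte integrin genes, *Itgb2*, which codes for the β2 subunit they share, was lowest in erythroblasts and highest in megakaryocytes. It read 10.99, 11.04, 11.07 and 10.91 in Meg, 8.95, 9.19, 9.14 and 8.97 in HSC, and 6.55, 7.02, 7.17 and 7.18 in ERY. The populations did not overlap, and the 4 Meg arrays lay within 0.17 of each other. It was 3.84-fold higher in Meg than in HSC (1.94, SE 0.15, adjusted p = 1.39e-06 in limma), 4.23-fold lower in ERY than in HSC (-2.08, SE 0.15, adjusted p = 4.84e-07) and 16.2-fold higher in Meg than in ERY (4.02, SE 0.15, adjusted p = 8.88e-10). *Itgal*, which codes for αL, read 10.06, 9.998, 10.26 and 9.63 in Meg, 9.28, 9.76, 9.94 and 9.90 in HSC, and 7.01, 7.72, 7.61 and 7.77 in ERY. Its Meg and HSC arrays overlapped and all ERY arrays lay below both. *Itgal* was 4.57-fold lower in ERY than in HSC (-2.19, SE 0.21, adjusted p = 5.36e-06) and 5.50-fold higher in Meg than in ERY (2.46, SE 0.21, adjusted p = 1.52e-06). Meg and HSC differed by 0.27 (95% interval -0.18 to 0.72, adjusted p = 0.347).

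*Itgam*, which codes for αM (CD11b), varied more between Meg arrays than any other member. It read 5.84, 6.08, 8.64 and 7.20 in Meg, 7.45, 6.79, 6.17 and 6.05 in HSC, and 5.04, 5.19, 5.36 and 5.55 in ERY. The ERY arrays lay below all others and below the olfactory receptor percentile of that population, while the Meg arrays spanned the whole HSC range. Cells bearing CD11b had been removed from HSC, which limits what the HSC level can show. *Itgam* was called higher in Meg than in ERY (log2 difference 1.66, SE 0.51, 95% interval 0.54 to 2.77, adjusted p = 0.0305 in limma). The Meg mean was 1.95-fold above the ERY percentile of 5.98. Meg array 1 (5.84) lay below that percentile and Meg array 2 (6.08) just above it. The call was lost without any 1 of the ERY arrays (adjusted p from 0.0509 to 0.0784), without Meg array 3 (1.09, adjusted p = 0.0546), without Meg array 4 (1.57, adjusted p = 0.0768) and with the replicate number as a block (adjusted p = 0.053). Against HSC it differed by -1.33 in ERY (SE 0.51, adjusted p = 0.0678), and this was called without Meg array 1 (adjusted p = 0.044), without Meg array 3 (adjusted p = 0.0107) and with only the 8 arrays compared (adjusted p = 0.0067). In Meg against HSC the difference was 0.33 (95% interval -0.79 to 1.45, adjusted p = 0.66), and -0.24 without Meg array 3.

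Many markers of other blood cells had their highest Meg value on the array where *Itgam* was highest. Only the highest array was counted, and markers not above the olfactory receptor percentile were included. The share of all genes highest on that array is not given, and the order of the other arrays differed between markers. Meg array 3, which had the highest *Itgam* value, was also the highest Meg array for 12 of 13 neutrophil and monocyte markers, 13 of 14 macrophage markers and 5 of 9 mast cell and basophil markers. Chosen as examples after their values were seen, *Mpo*, which codes for myeloperoxidase, read 5.63, 8.01, 10.87 and 6.24 on the 4 Meg arrays, and *Csf1r*, the receptor of macrophage growth factor, read 7.58, 8.41, 10.54 and 9.51. Other markers of these lists were high on all 4 arrays and varied less: *Lyz2*, the lysozyme gene, read 12.36, 11.73, 12.76 and 12.48, and *Cd68*, a macrophage gene, read 10.19, 8.92, 10.55 and 10.37. The summed level of the neutrophil and monocyte list, as the log2 of the summed linear values, ran from 14.23 to 14.65 in HSC, 10.37 to 10.59 in ERY and 12.2 to 13.61 in Meg, with 12, 7 and 11 of its 13 markers above the olfactory receptor percentile. For the macrophage list the ranges were 11.77 to 12.15, 12.15 to 13.07 and 11.37 to 13.25, with 13, 14 and 11 of 14 above it, and for the mast cell and basophil list 10.82 to 11.38, 8.72 to 9.42 and 8.48 to 10.99, with 4, 3 and 4 of 9. In Meg, *Timd4*, *Marco* and *Vcam1* among macrophage markers and *Camp* and *Fcnb* among neutrophil markers were not above the percentile. The part of such cells in the *Itgam*, *Itgb2* and *Itgal* levels was not tested.

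**Figure D3:**
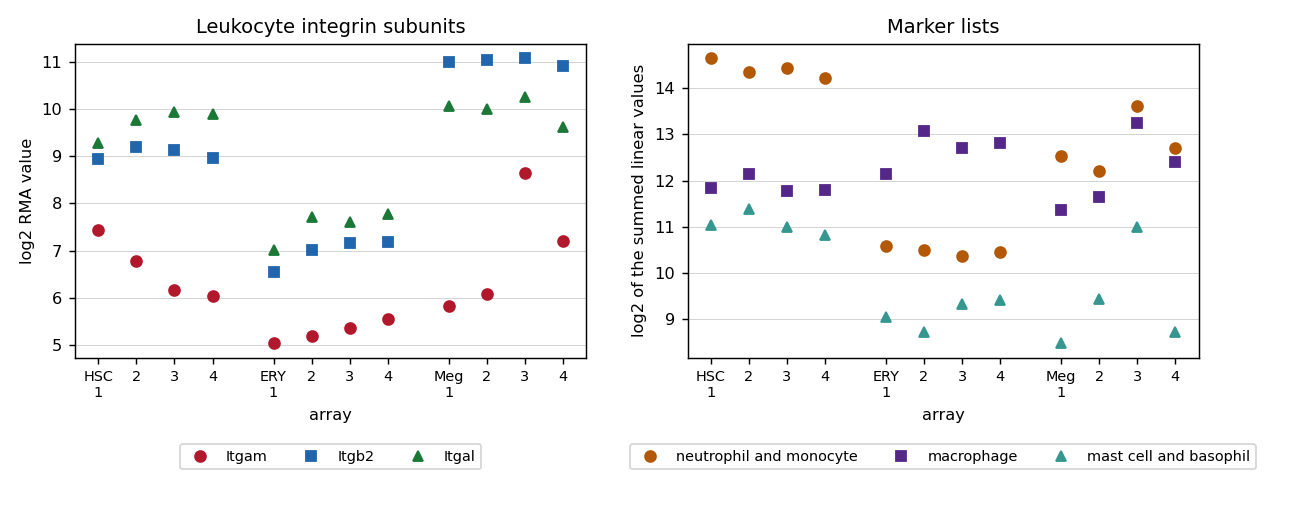
Left, log2 RMA values of *Itgam*, *Itgb2* and *Itgal* on each of the 12 arrays; right, the log2 of the summed linear values of 3 marker lists on the same arrays. *Itgam* and the summed lists are highest among Meg arrays on array 3, where *Itgb2* reads 11.07 against 10.91 to 11.04 on the others.

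Of the other 17 integrin subunits of the mouse, a list that completes the family, Meg against HSC had 2 higher, 2 lower and 13 not called, and ERY against HSC had 1 higher, 1 lower and 15 not called. The comparison of Meg with ERY gave 2 higher, 2 lower and 13 not called. The shares called were 23.5%, 11.8% and 23.5%, beside 20.2%, 20.6% and 16.5% of all genes. *Itgav*, the other alpha partner of β3 and part of the vitronectin receptor, read 9.39, 9.03, 9.33 and 8.62 in Meg, 8.48, 7.93, 7.34 and 7.36 in HSC, and 7.55, 7.75, 7.86 and 7.68 in ERY. Its Meg arrays lay above all others, and it was higher there than in HSC by 1.31 (SE 0.25, adjusted p = 0.00132 in limma) and than in ERY by 1.38 (adjusted p = 0.000948), although without HSC arrays 3 and 4 its difference from HSC was 0.89 and not called. *Itga11*, a collagen receptor subunit, was higher in Meg than in HSC by 1.76 (adjusted p = 0.000397) and than in ERY by 1.75 (adjusted p = 0.00038), with 8.51 on Meg array 1 and 7.03 to 7.30 on the others. Its ERY mean, 5.74, was not above the olfactory receptor percentile, and the Meg mean was 2.85-fold above that percentile. Of the 4 HSC arrays, 2 (5.52 and 5.44) were below the percentile of HSC. On Meg array 4 *Itga11* read 7.11, below that array's own percentile of 7.35. *Itga9* was lower in Meg than in HSC (-1.08, adjusted p = 0.000942) and than in ERY (-1.33, adjusted p = 0.000187), and *Itgb7*, the partner of α4 in the homing receptor of lymphocytes, was lower in Meg than in HSC (-1.01, adjusted p = 0.00595). Both falls from HSC lay close to the 2-fold threshold: *Itga9* dropped under it without Meg array 2 (-0.98), and *Itgb7* without HSC array 3 (-0.913), HSC array 4 (-0.93), Meg array 1 (-0.87), Meg array 4 (-0.893) or HSC arrays 3 and 4 together (-0.74). With ribosomal centering the falls were -0.52 and -0.45. On Meg array 4 *Itga9* (6.47) and *Itgb7* (5.80) were below that array's own percentile of 7.35. *Itgb7* was also below it on Meg array 1 (5.74 against 6.04).

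*Itgad* and *Itgax*, further alpha partners of β2, differed in erythroblasts in opposite directions. *Itgad* read 9.31, 9.12, 8.29 and 8.58 in ERY and 6.77 to 7.32 on all other arrays, and was higher in ERY than in HSC by 1.66 (SE 0.21, adjusted p = 4.86e-05 in limma) and lower in Meg than in ERY (-1.75, adjusted p = 3.1e-05). A second *Itgad* probe set averaged 5.55 in HSC and 5.37 in both other populations, and with the mean over probe sets both calls were lost (0.74 and -0.87). *Itgax*, next to *Itgam* in RefSeq (GRCm38.p6), was lower in ERY than in HSC (-1.27, adjusted p = 3.65e-05). With ribosomal centering the difference was -0.87, short of the 2-fold threshold. *Itgax* read 6.26 to 6.50 in HSC and 4.996 to 5.21 in ERY. The ERY values lay below the percentile of olfactory receptor genes, and the HSC mean was 1.32-fold above that ERY percentile. Macrophages can carry the product of *Itgad*, and 8 of 14 macrophage markers were also higher in ERY than in HSC, beside 8.35% of all genes. Their part in the *Itgad* level was not tested.

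**Figure D4:**
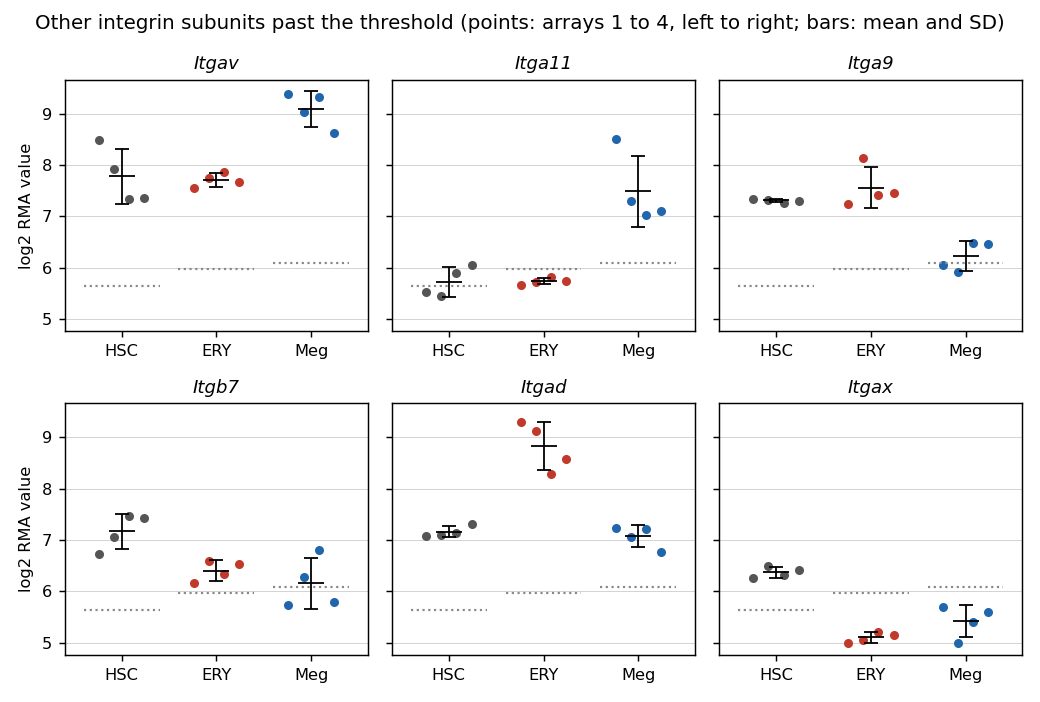
Log2 RMA values of the 6 other integrin subunits past the threshold in at least 1 comparison, with arrays 1 to 4 from left to right, bars for the mean and SD of 4 arrays, and dotted lines at the 95th percentile of olfactory receptor genes. *Itgav* and *Itga11* are highest in Meg and *Itgad* is highest in ERY.

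Genes tied to integrin activation, here called activation genes, were counted next. The list mixes activators, inhibitors, kinases of integrin signaling and membrane proteins that associate with integrins. Its counts therefore do not measure activation. Of 29 measured, Meg against HSC gave 14 higher, 2 lower and 13 not called, where 8.77% of all genes were higher and 11.4% lower. ERY against HSC gave 5 higher, 10 lower and 14 not called (8.35% and 12.3% of all genes), and Meg against ERY gave 14 higher, 1 lower and 14 not called (8.75% and 7.77% of all genes). Their median log2 differences were 0.88, -0.40 and 0.96. *Fyb*, an adaptor that joins integrin signaling to RAP1, was higher in Meg than in HSC by 4.11 (SE 0.42, adjusted p = 1.52e-05 in limma), *Cd9*, a tetraspanin that associates with integrins, by 3.59 (adjusted p = 9.52e-09), and the kinase *Src*, which acts downstream of β3, by 2.82 (adjusted p = 4.47e-06). The same comparison had *Rassf5*, a RAP1 effector of lymphocytes, lower (-1.99, adjusted p = 5.48e-05) and *Sharpin*, an inhibitor of integrin activation, lower (-1.01, adjusted p = 0.00135), though *Sharpin* was under 2-fold without HSC array 3 (-0.94), HSC array 4 (-0.89), Meg array 4 (-0.92) or HSC arrays 3 and 4 together (-0.72). *Sharpin* was also under it with quantile normalization (-0.93) and ribosomal centering (-0.45). Named after their values were seen, the talin gene *Tln1* and the kindlin gene *Fermt3* were higher in Meg than in HSC by 1.08 and 1.01. Both lay close to the 2-fold threshold, and HSC array 1 read lowest for both. *Tln1* read 10.56 there and 11.01 to 11.12 on the other HSC arrays, and *Fermt3* 9.82 and 10.78 to 11.11. *Fermt3* was lower in ERY than in HSC (-1.47). Leaving out HSC arrays 1 and 2, HSC arrays 3 and 4 or Meg arrays 1 and 3, 10 to 14 genes of the list were higher in Meg than in HSC.

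In ERY, *Rasgrp2*, which codes for the exchange factor that activates RAP1 in platelets, was lower than in HSC (-3.65, SE 0.45, adjusted p = 4.28e-05 in limma). So were *Syk*, which codes for a kinase of integrin signaling (-2.98, adjusted p = 2.93e-08), and *Rassf5* (-2.94, adjusted p = 1.5e-06). Higher than in HSC were the GTPase gene *Rap1a* by 1.93 (adjusted p = 0.0048), *Krit1*, whose product binds RAP1, by 1.90 (adjusted p = 0.00597) and the kindlin gene *Fermt2* by 1.33 (adjusted p = 0.000129). Without HSC arrays 3 and 4 the number higher in ERY was 2 in place of 5, with *Rap1a* at 0.89 and *Krit1* at 0.97. Between Meg and ERY, *Cd9* differed by 5.14 (adjusted p = 1.69e-10), *Rasa3*, which codes for a protein that turns RAP1 off, by 4.43 (adjusted p = 1.92e-10) and *Fyb* by 4.16 (adjusted p = 7.87e-06), all higher in Meg. *Fermt2* was the 1 gene of the list lower in Meg than in ERY (-1.74, adjusted p = 1.31e-05), and leaving out Meg arrays 1 and 3 gave 2 such genes. Its Meg mean, 5.27, was not above the olfactory receptor percentile, and the ERY mean was 1.89-fold above that percentile.

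Of 30 measured ligand genes, Meg against HSC had 4 higher, 7 lower and 19 not called, ERY against HSC had 7 higher, 6 lower and 17 not called, and Meg against ERY had 6 higher, 8 lower and 16 not called. The shares called were 36.7%, 43.3% and 46.7%, beside 20.2%, 20.6% and 16.5% of all genes, and the median differences were -0.07, 0.26 and -0.32. Megakaryocytes had more RNA of *Vwf*, the von Willebrand factor bound by αIIbβ3, than HSC by 4.47 (SE 0.25, adjusted p = 9.69e-08 in limma) and than ERY by 4.59 (adjusted p = 2.33e-08). *F11r*, a junctional adhesion molecule bound by αLβ2, was higher in Meg by 4.35 (adjusted p = 2.88e-08) and 4.06 (adjusted p = 1.22e-08) in the same comparisons, and *Thbs1*, which codes for thrombospondin, by 4.03 (adjusted p = 1.45e-05) and 5.30 (adjusted p = 6.75e-07). *Icam2*, a ligand of αLβ2, was highest in HSC and lower in Meg (-1.99, adjusted p = 0.000106) and in ERY (-2.67, adjusted p = 7.29e-06). In ERY *Icam4*, a red cell ligand of integrins, was higher than in HSC by 2.98 (adjusted p = 1.92e-07), whereas *Emilin1* (-1.93, adjusted p = 6.8e-05) and *Tgfb1* (-1.85, adjusted p = 3.21e-05) were lower.

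Fibrinogen and vitronectin, plasma ligands of αIIbβ3 and αvβ3 made by hepatocytes, were lower in Meg and higher in ERY. *Fgg*, a fibrinogen chain, was higher in ERY than in HSC by 2.99 (SE 0.46, adjusted p = 0.000249 in limma) and lower in Meg than in HSC (-1.90, adjusted p = 0.0062), and *Fgb*, another chain, was higher in ERY than in HSC by 2.77 (adjusted p = 7.04e-05). *Fgg*, *Fgb* and the vitronectin gene *Vtn* were lower in Meg than in ERY (-4.90, -4.42 and -4.18), and *Vtn* was lower in Meg than in HSC (-2.75, adjusted p = 0.000167). The Meg means of *Fgg*, *Fgb* and *Vtn* (5.398, 5.53 and 5.401) were not above the olfactory receptor percentile. The ERY means were 18.4-fold, 14.5-fold and 11.24-fold above that percentile. The HSC means were 2.31-fold above it for *Fgg* and 4.18-fold for *Vtn*. These folds compare means with a percentile and carry no interval. Hepatocyte markers moved with them. Of 9 measured, *Fgg* among them, 7 were higher in ERY than in HSC, 7 lower in Meg than in HSC and 9 lower in Meg than in ERY. The shares of all genes called in these directions were 8.35%, 11.4% and 7.77%. Their summed level ran from 12.41 to 13.92 in HSC, 14.19 to 14.96 in ERY and 9.67 to 11.02 in Meg, and *Afp*, *Ahsg*, *Alb*, *Apob* and *Fgg* were not above the olfactory receptor percentile in Meg. The part of hepatocyte RNA in these ligand levels was not tested. *Vcam1*, the ligand of α4β1 and named after its values were seen, read 9.25 to 9.44 in ERY, 5.77 to 7.44 in HSC and 5.66 to 6.15 in Meg. *Vcam1* is also on the macrophage list, of which 14 of 14 measured markers exceeded the percentile in ERY, 13 in HSC and 11 in Meg.

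Genes with the profile most like each subunit were found over the 12 arrays by the root mean square difference of profiles centered on each gene's own mean, among 6782 genes whose population means span at least 1. For *Itga2b* they were *Rbpms2* (0.268), *Mpig6b* (0.299) and the platelet chemokine gene *Pf4* (0.345), and for *Itgb3* the lipoxygenase gene *Alox12* (0.327), *Thbs1* (0.393) and *F2rl2* (0.457), which codes for a thrombin receptor. *Itga2* was closest to *Mrvi1* (0.219), *Mylk* (0.223), which codes for myosin light chain kinase, and *Syt11* (0.247), and *Itga6* to *Plek* (0.190), the gene of pleckstrin, *Tec* (0.273) and *Prkca* (0.373). *Itgb1* had the closest neighbors, *Nfe2l2* (0.154), *Relch* (0.157) and *Slmap* (0.181). Around *Itga4* were *Nsd2* (0.267), *Cd2ap* (0.270) and *Stil* (0.273), and around *Itga5* *Sigirr* (0.259), *Rab4a* (0.268) and *Adck1* (0.286). *Itgb2* ran with *Pecam1* (0.254), the gene of another platelet and leukocyte adhesion protein, *Layn* (0.261) and *Plekha2* (0.282), *Itgal* with *Tor4a* (0.172), *Rbfa* (0.202) and *Lrrk1* (0.211), and *Itgam* with *Ccr1* (0.323), a chemokine receptor gene of myeloid cells, *Xdh* (0.363) and *Ifi205* (0.364). Among the members themselves the next closest pair after *Itga2b* and *Itgb3* was *Itga6* and *Itgb3* (0.766), followed by *Itgb2* and *Itgal* (0.783), and *Itga4* lay farthest from the rest, 1.83 from its nearest, *Itgb1*. These distances are descriptions over arrays of 3 populations and carry no test.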

How the data were processed

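RNA of 12 samples of mouse fetal liver populations (HSC, ERY and Meg, 4 each, grouped by their labels) had been hybridized by the authors to GeneChip Mouse Gene 1.0 ST arrays. The authors applied RMA and deposited the log2 value of each probe set on each array. The version and settings of RMA and the genome build were not stated in the sources at hand. Of 34760 probe sets, 21640 carry 1 symbol in the platform annotation and were used, 1321 carry several and 11799 are not annotated. They gave 19937 genes, of which 954 have more than 1 probe set and were represented by the highest mean; each of the 10 members has 1. The values are not counts, so precision follows from the 12 arrays. Each SE and adjusted p-value treats the 4 arrays of a population as independent. The split of the HSC arrays into pairs was not modeled, so those against HSC may overstate the precision.

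Differences were tested by limma 3.58.1 (R 4.3.3) on all 12 arrays with a mean for each population, no filter on low values and Benjamini-Hochberg adjustment over all 19937 genes. Calls used the study's thresholds, an FDR under 5% and a change of more than 2-fold. All 10 members also pass filters at the median of all probe sets and at the olfactory receptor percentile. Members and lists were chosen with earlier results of these data known. Named genes are the members, the 3 largest changes each way on each list among genes called, and the 3 genes of most similar profile; exceptions are stated. Promoters and gene neighbors came from RefSeq (GRCm38.p6). The fit was run on simulated arrays with known changes. Noise there was independent between arrays, so that run could not test the effect of the HSC pairs. Alternatives were another set of arrays, the replicate number as a block, arrays left out singly or in pairs, filters, normalizations, probe set means, variance settings, array weights and thresholds; leaving out pairs of arrays for the ligand and activation lists, and all alternatives for single genes of the lists, were added after seeing the data. Figures used matplotlib 3.10.9 and pandas 2.3.3 in Python 3.11.15.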

Additional observations from a re-analysis of the deposited data

Results flagged for a closer look

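On Meg array 1, *Itgb3* read 13.23, against 12.86 to 12.92 on the other Meg arrays, a gap that by Dixon's criterion sets 1 array apart from the other 3. *Itga6* read 12.36 on the same array, against 12.03 to 12.07 on the others. Of the 48 groups of 4 arrays examined these 2 stood apart, and chance alone sets about 1 in 20 groups apart. Both values differ from the rest by less than the difference of either gene between populations.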

How the results depend on the processing

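The changes of the 10 members in the 3 comparisons were each recomputed under 29 alternatives, and 823 values kept direction and call, 27 lost the call, 13 gained it and 7 reversed. The increases of *Itga2b*, *Itgb3*, *Itga2*, *Itga6*, *Itgb1* and *Itgb2* in Meg against HSC kept direction and call under all 29. Reversed were changes not called: *Itga2* in ERY against HSC (-0.055 to 0.12 leaving out 1 array at a time, lowest without ERY replicate 2, -0.011 without HSC arrays 3 and 4, -0.042 with centering on array medians), *Itgam* in Meg against HSC (-0.24 to 0.70 leaving out 1 array at a time, lowest without Meg replicate 3, -0.18 without HSC arrays 3 and 4), *Itga4* in Meg against HSC (0.023 without HSC arrays 1 and 2) and *Itgb1* in ERY against HSC (-0.033 without HSC arrays 3 and 4). The cause was not tested.

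Leaving out 1 array at a time, members higher in ERY against HSC ranged from 1 to 2 (2 without HSC replicate 1) and members lower in Meg against HSC from 1 to 2 (2 without HSC replicate 4). Members higher in ERY against HSC, 1 as reported, were 2 without HSC arrays 1 and 2, 0 without HSC arrays 3 and 4, 2 with ribosomal centering, 2 with array weights and 0 with a test against 2-fold (treat). Treat also left 2 of 6 members lower in ERY and 0 of 1 lower in Meg, and ribosomal centering left 0 lower in Meg. Over all 27 subunits, 2 were higher in ERY than in HSC; this was 1 without HSC arrays 3 and 4, 1 with probe set means, 1 with treat and 4 with ribosomal centering. The 7 lower in ERY became 4 with ribosomal centering and 2 with treat, the 3 lower in Meg than in HSC became 0 with ribosomal centering, 5 with array weights and 0 with treat, and the 10 higher in Meg than in ERY became 6 with treat. For activation genes, the 5 higher in ERY than in HSC became 2 without HSC arrays 3 and 4, and the 1 lower in Meg than in ERY became 2 without Meg arrays 1 and 3.

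With the replicate number as a block, *Itgam* in Meg against ERY lost its call (1.66, adjusted p = 0.053 in limma) and no other member's call changed. The 43 changes named by rule from the ligand, activation and other-subunit lists were recomputed under the same 29 alternatives after seeing the data, and 1214 of 1247 values kept direction and call, 33 lost the call (13 with treat, 0 with the block) and 0 reversed. The numbers gave no sign of pairing: of 12 pairs of same-numbered arrays, 4 correlated above 0.1 in their deviations from group means (-0.411 to 0.331), and 1 of 12 arrays correlated best with its own number.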
